A study of Mus musculus with 6 samples.

Results

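The genes described here are 8 mouse genes at which inbred strains are known to carry distinct alleles: Gpnmb, Tyrp1, Myo5a, Soat1, Hc, Ahr, Nnt and Cdh23. For all but Nnt, AKR/J or DBA/2J is among the strains with a known variant allele. Members were all probe sets whose platform annotation gives exactly 1 symbol and that symbol is one of the 8, with no filter on signal. This found 16 of the 45037 probe sets on the array, for 7 of the 8 genes. No probe set carried Soat1 as its single symbol in the annotation used, so Soat1 itself was not analysed here. Total RNA from lungs of adult female F1 mice was hybridised to Affymetrix 3' expression arrays. The 3 AKR_F1 arrays came from (AKR/J x FVB/NJ)F1 females and the 3 DBA_F1 arrays from (DBA/2J x FVB/NJ)F1 females, to compare basal expression between genotypes. Mice of both groups carry 1 chromosome set from the inbred strain FVB/NJ, so an allele from AKR/J or DBA/2J is measured next to the FVB/NJ allele and never alone, unless FVB/NJ shares it. No treatment other than euthanasia under Avertin is given in the labels, and they do not say whether each array holds a separate animal. The p-values therefore measure only the spread between these samples, which may be technical.

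Gpnmb, Tyrp1 and Myo5a belong to pigment cell biology. GPNMB is a transmembrane glycoprotein of melanosomes and of lysosome-rich macrophages, TYRP1 is a melanosomal enzyme that shapes eumelanin, and myosin Va is the actin motor that carries melanosomes to the cell edge. DBA/2J carries a premature stop codon in Gpnmb, the brown allele of Tyrp1 and the dilute allele of Myo5a, and the first pair together give this strain its pigmentary glaucoma. Soat1 encodes the enzyme that esterifies cholesterol for storage and is altered in AKR/J, whose adrenal glands are depleted of lipid. Hc encodes complement component C5, which starts the membrane attack complex, and AKR/J, DBA/2J and FVB/NJ all carry the same frameshift, so both kinds of F1 mice carry that allele alone. Ahr encodes the aryl hydrocarbon receptor, a ligand-activated transcription factor, and AKR/J and DBA/2J both carry its low-affinity form. Nnt encodes the inner mitochondrial membrane transhydrogenase that makes NADPH, and its known null allele is that of C57BL/6J, not of a strain used here. Cdh23 encodes a cadherin of the inner ear tip link, and DBA/2J carries its age-related hearing loss allele.

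Promoter sequence is shown for Gpnmb, the member with the clearest group difference, and for Tyrp1, the other melanosomal protein gene, which was dim on every array. Of the 8 genes 6 had an entry in the RefSeq promoter table (GRCm38.p6), and the 250 bases before the start used in that table are given for these 2. That start is the first base of the gene for Gpnmb, but for Tyrp1 it lies 90 bases inside the annotated gene, so the last 90 bases of the Tyrp1 window are within it. Capitals mark matches to CATGTG or CACGTG, the letters of the E-box that the pigment cell factor MITF binds, searched on both strands; CACGTG reads the same on both, and no base can belong to a match of each motif.
Gpnmb, chr6:49036268-49036517, plus strand: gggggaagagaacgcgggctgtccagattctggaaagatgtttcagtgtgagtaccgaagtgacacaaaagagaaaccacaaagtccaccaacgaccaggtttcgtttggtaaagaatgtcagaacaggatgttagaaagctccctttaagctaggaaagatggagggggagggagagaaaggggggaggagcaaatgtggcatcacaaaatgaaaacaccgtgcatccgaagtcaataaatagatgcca
Tyrp1, chr4:80833963-80834212, plus strand: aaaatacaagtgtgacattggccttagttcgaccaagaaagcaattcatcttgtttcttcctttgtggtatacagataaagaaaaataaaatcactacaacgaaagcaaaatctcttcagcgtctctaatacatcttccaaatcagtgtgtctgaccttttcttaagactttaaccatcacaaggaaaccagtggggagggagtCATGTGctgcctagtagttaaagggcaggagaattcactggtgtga
The Tyrp1 window held 1 match, CATGTG, which begins 46 bases before the table's start and so within the annotated gene, and the Gpnmb window held 0. Among the other members in the table, the Cdh23 window also held 1 CATGTG, which begins 57 bases before its start. Those of Soat1, Hc and Myo5a held 0. Of the 32851 promoters in the table, 17.6% held either motif in the same 250 bases. A match is a description of the letters and no evidence of binding.

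Signals were log2 values as deposited, ranging from 1.90 to 14.56 over all arrays. Group differences are AKR_F1 minus DBA_F1 from a limma fit over all 45037 probe sets, and a probe set was called at a Benjamini-Hochberg adjusted p under 0.05. In all, 687 probe sets were called, 398 of them higher in AKR_F1. Leaving out AKR_F1 replicate 1 or AKR_F1 replicate 2 lowered this total to 245 or 247, and leaving out DBA_F1 replicate 2 lowered it to 276. When AKR_F1 replicate 3 was dropped, it was 1211, with 543 higher in AKR_F1 and 668 higher in DBA_F1. Dropping DBA_F1 replicate 3 also turned the split, to 265 higher in AKR_F1 and 445 higher in DBA_F1. Markers of lung epithelium were strong on every array, with a mean over 10 genes between 12.05 and 12.17 in AKR_F1 and between 11.97 and 12.09 in DBA_F1. Of these genes 7 had a positive difference and 3 a negative one, and Sftpb was called (0.32, limma adjusted p = 0.038). Means over 9 squamous epithelium markers were 4.64, 4.48 and 8.23 on AKR_F1 replicates 1 to 3 and ran from 7.83 to 8.42 in DBA_F1. Those over 9 skeletal muscle markers were 5.37, 4.87 and 9.16 in AKR_F1 and ran from 8.58 to 9.08 in DBA_F1, so AKR_F1 replicates 1 and 2 stood apart in both lists. Adipocyte markers (8 genes) averaged 6.48 to 7.47 in AKR_F1 and 8.28 to 9.37 in DBA_F1, and this list did not overlap between groups.

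Of the 16 member probe sets 2 were called, 1 of Gpnmb and 1 of Nnt, beside 1.53% of all probe sets. Both were higher in AKR_F1, as were 0.884% of all probe sets. Of the 16, the same 2 were the only members with an unadjusted limma p under 0.05, beside 6389 of all 45037 probe sets. The groups did not overlap in 5 of the 16, a single probe set each of Gpnmb, Nnt and Cdh23 and a pair of Myo5a, against 19.1% of all probe sets on the array. Means of 7 member probe sets (all 3 of Tyrp1, both of Cdh23 and 1 each of Gpnmb and Nnt) lay at or below 4.72. Under that level, set by rank alone, the lowest 40% of all probe sets fall. Signal there may not be separated from background, which was not tested. The mean was higher in AKR_F1 for 13 of the 16 member probe sets, and for 9554 of 18193 genes by 1 representative probe set each. These counts differ in unit, since the 16 come from 7 genes and probe sets of the same gene are counted separately. The median difference over the 16 was 0.14, against 0.012 over all probe sets.

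**Figure D1:**
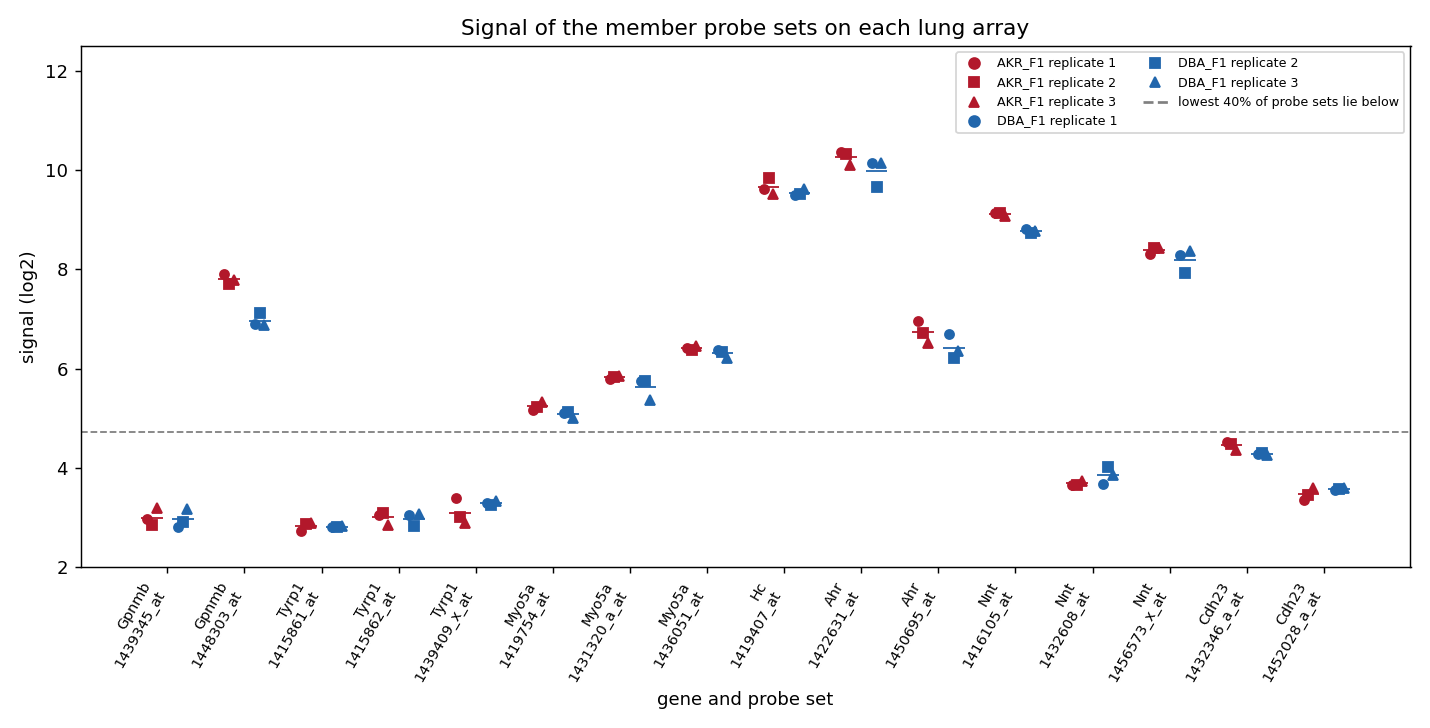
Log2 signal of each of the 16 member probe sets on every array, AKR_F1 in red and DBA_F1 in blue, with symbols for replicates 1 to 3, short lines at group means and a dashed line at 4.72. The groups separate most clearly at Gpnmb 1448303_at and Nnt 1416105_at, and all Tyrp1 and Cdh23 points lie below the dashed line.

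Gpnmb was 1.78-fold higher in AKR_F1 lung. On chromosome 6 (49036518 to 49058182, GRCm38.p6), the gene had 2 probe sets. Probe set 1448303_at read 7.91, 7.71 and 7.78 in AKR_F1 replicates 1 to 3, against 6.91, 7.11 and 6.87 in DBA_F1 replicates 1 to 3. The lowest AKR_F1 value lay above the highest DBA_F1 value. The means were 7.80 ± 0.099 in AKR_F1 and 6.96 ± 0.13 in DBA_F1 (SD, n = 3 each). The difference was 0.84 ± 0.088 (SE, limma adjusted p = 0.00488), with a 95% interval from 0.63 to 1.04. It was 0.85 without AKR_F1 replicate 3, and 0.81 for AKR_F1 replicate 3 alone against DBA_F1 (adjusted p = 0.116, not called). Its call held whichever of the 6 arrays was dropped. The other probe set, 1439345_at, was dim, at 2.85 to 3.18 in AKR_F1 and 2.82 to 3.17 in DBA_F1, with overlapping groups and a difference of 0.036 (95% interval from -0.24 to 0.32).

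Macrophages are a known source of Gpnmb in tissue, and their markers are given here beside it. Among 10 macrophage markers Siglecf, a lectin of alveolar macrophages and eosinophils, was called (0.83 ± 0.12 SE, limma adjusted p = 0.016), with 7.57, 7.15 and 7.34 in AKR_F1, against 6.45, 6.46 and 6.67 in DBA_F1. Siglecf was not called when AKR_F1 replicate 1 (adjusted p = 0.0502), DBA_F1 replicate 1 (0.0515) or DBA_F1 replicate 2 (0.0854) was dropped. Of the 10 markers 8 had a positive difference, with a median of 0.13 and a range from -0.19 to 0.83. The markers of highest signal were Lyz2, the myeloid lysozyme, and the chitinase-like protein gene Chil3, the 2 with a negative difference. Lyz2 differed by -0.023 near the top of the scale and Chil3 by -0.19 (limma adjusted p = 0.436). Next by signal was Csf1r, which differed by 0.23 with no overlap between groups (adjusted p = 0.0586). Marco, a scavenger receptor of alveolar macrophages, read 6.01, 5.89 and 6.56 in AKR_F1 and 4.90, 7.79 and 5.72 in DBA_F1, so DBA_F1 replicate 2 lay far above the other arrays of its group. The mean over the list was 9.20 to 9.36 in AKR_F1 and 8.99 to 9.27 in DBA_F1, and the groups overlapped. Without Marco, left out after its values were seen, it was 9.57 to 9.71 in AKR_F1 and 9.44 to 9.50 in DBA_F1, with no overlap. In bulk lung, fewer cells of a type and less RNA per cell cannot be told apart, and the part of macrophage number in the Gpnmb difference was not tested. Of 14 measured genes of lysosome-rich macrophages, 0 were called, beside 1.62% of all 18193 genes. Lpl (-0.46, limma adjusted p = 0.0525) and Atp6v0d2 (0.30, adjusted p = 0.0657) came close to the threshold, with no overlap between groups. Both were picked for mention with their values known. The examples of highest signal were the lysosomal membrane protein Lamp1 (0.048) and the fatty acid binding protein Fabp5 (-0.39, adjusted p = 0.345). Fabp5 read 11.83, 11.92 and 12.49 in AKR_F1 and 12.49, 12.64 and 12.29 in DBA_F1, so AKR_F1 replicate 3 lay with DBA_F1, and without that array it was called (-0.59, adjusted p = 0.0216). Their median difference was -0.013, against 0.0072 over all genes.

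Tyrp1, on chromosome 4 (80834123 to 80851736), was dim on all 6 arrays. Its probe sets 1415861_at, 1415862_at and 1439409_x_at read 2.73 to 3.38 in AKR_F1 and 2.80 to 3.32 in DBA_F1. The groups overlapped in all 3, and the differences were 0.017, 0.022 and -0.19, with 95% intervals that together ran from -0.48 to 0.25. AKR/J and FVB/NJ are albino strains and DBA/2J is not, so that only DBA_F1 mice carry a functional allele of tyrosinase (Tyr), the first enzyme of melanin synthesis. Tyr was also dim, at 3.13 to 3.16 in AKR_F1 and 3.09 to 3.12 in DBA_F1, and differed by 0.038 (limma adjusted p = 0.857). Dct, the melanosomal enzyme related to TYRP1, read 3.80 to 3.98 in AKR_F1 and 3.74 to 3.78 in DBA_F1. Of 15 measured melanocyte and melanosome genes 0 were called and 8 had a positive difference, with a median of 0.016. The examples of highest signal, Kit and Ednrb, encode receptors that other lung cells also make, and they differed by 0.057 and 0.052.

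Myo5a, on chromosome 9 (75069799 to 75223688), was measured by 3 probe sets, all with a higher mean in AKR_F1 and none called. Probe set 1436051_at read 6.41, 6.37 and 6.46 in AKR_F1 and 6.37, 6.34 and 6.22 in DBA_F1, and the groups overlapped at their edges. Probe set 1431320_a_at read 5.79, 5.83 and 5.86 in AKR_F1 against 5.75, 5.75 and 5.37 in DBA_F1, where replicate 3 lay below the other arrays. Probe set 1419754_at read 5.16, 5.23 and 5.32 in AKR_F1 and 5.11, 5.12 and 5.01 in DBA_F1. In the last pair the groups did not overlap, but the gap was small against their spread. The differences were 0.10, 0.20 and 0.16 (limma adjusted p = 0.610, 0.497 and 0.468), and the highest upper bound of their 95% intervals was 0.47. The 12 myosin V relatives and cargo adaptors had a median difference of 0.064, with 9 positive and 0 called. Among them the light chain Dynll1 differed by 0.15 (adjusted p = 0.309) and the recycling endosome GTPase Rab11a by 0.094 (adjusted p = 0.396).

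Hc, on chromosome 2 (34983329 to 35068506), gave clear signal in both groups. Probe set 1419407_at read 9.61, 9.84 and 9.52 in AKR_F1 and 9.50, 9.51 and 9.61 in DBA_F1. The groups overlapped, and the difference was 0.12 ± 0.085 (SE, limma adjusted p = 0.599, 95% interval from -0.077 to 0.32). The liver is the main source of C5 in blood. Albumin (Alb), the defining liver marker, was dim, at 4.09 to 4.15 in AKR_F1 and 4.28 to 4.48 in DBA_F1, and the mean over 5 liver markers was 4.57 to 4.71 in AKR_F1 and 4.70 to 4.85 in DBA_F1. Of 10 measured genes of terminal complement, its regulators and the C5a receptors, 0 were called, and 7 had a negative difference. Cd59a, which blocks the membrane attack complex, read 8.07, 8.14 and 8.02 in AKR_F1 and 8.55, 8.45 and 8.33 in DBA_F1, with no overlap (-0.37, adjusted p = 0.0553); it was chosen for mention after its values were seen. The examples of highest signal were clusterin (Clu, -0.25, adjusted p = 0.143) and C6 (0.10, adjusted p = 0.589), a component of the membrane attack complex.

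Ahr, on chromosome 12 (35497979 to 35534989), had 2 probe sets with higher means in AKR_F1, and neither was called. Probe set 1422631_at read 10.37, 10.31 and 10.10 in AKR_F1, against 10.13, 9.66 and 10.14 in DBA_F1. Probe set 1450695_at read 6.96, 6.72 and 6.51 in AKR_F1, against 6.70, 6.22 and 6.35 in DBA_F1. The groups overlapped in both, and DBA_F1 replicate 2 was the lowest array in both. The differences were 0.29 ± 0.13 and 0.31 ± 0.15 (SE, limma adjusted p = 0.394 and 0.421), with 95% intervals from -0.025 to 0.60 and from -0.045 to 0.66. Without DBA_F1 replicate 2 they were 0.13 and 0.19.

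Target genes of the receptor did not pass the test either. Of 9 measured partners and targets of AHR 0 were called, and 7 had a negative difference (median -0.20). Without AKR_F1 replicate 3, Aldh3a1 and the quinone reductase gene Nqo1 were called. Cyp1a1, the classic induced cytochrome P450, read 7.45, 7.89 and 7.48 in AKR_F1 and 7.85, 7.94 and 8.77 in DBA_F1 (-0.58, limma adjusted p = 0.323). Cyp1b1 read 5.85, 6.20 and 6.35 in AKR_F1 and 6.55, 7.06 and 6.77 in DBA_F1, with no overlap (-0.66, adjusted p = 0.116). Both cytochromes were picked for mention with their values known. By the rule of highest signal, the regulator of antioxidant genes Nfe2l2 (0.11, adjusted p = 0.472) and the aldehyde dehydrogenase Aldh3a1 were examples. Aldh3a1 read 7.63, 8.04 and 9.71 in AKR_F1 and 9.63, 10.37 and 9.86 in DBA_F1, so AKR_F1 replicate 3 lay with DBA_F1, as it did for the squamous markers. It differed by -1.49 (adjusted p = 0.222), and by -2.11 without AKR_F1 replicate 3 (adjusted p = 0.0023). Nqo1 differed by -0.31 (adjusted p = 0.391), and by -0.49 without that array (adjusted p = 0.0484). The part of squamous epithelium in these differences was not tested.

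Nnt, on chromosome 13 (119335527 to 119409257), was 1.27-fold higher in AKR_F1 by its brightest probe set. Probe set 1416105_at read 9.14, 9.13 and 9.08 in AKR_F1, against 8.81, 8.73 and 8.78 in DBA_F1. The arrays lay close together within each group, with 9.12 ± 0.031 in AKR_F1 and 8.77 ± 0.036 in DBA_F1 (SD, n = 3 each), and did not overlap. The difference was 0.35 ± 0.050 (SE, limma adjusted p = 0.0191, 95% interval from 0.23 to 0.46). Its size hardly changed when 1 array was left out (0.33 to 0.36), but it was not called without AKR_F1 replicate 1 (adjusted p = 0.108), AKR_F1 replicate 2 (0.0953) or DBA_F1 replicate 2 (0.0953), nor with eBayes without a trend (0.0509).

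The other Nnt probe sets were not called. Probe set 1456573_x_at read 8.32, 8.43 and 8.44 in AKR_F1 and 8.28, 7.93 and 8.38 in DBA_F1, with overlap and a difference of 0.20 (limma adjusted p = 0.491), which was 0.065 without DBA_F1 replicate 2. Probe set 1432608_at was dim and differed by -0.16 (adjusted p = 0.553). The 13 measured genes of mitochondrial NADPH supply and antioxidant defence had 0 calls and a median of -0.067, with 10 negative differences. The glutathione peroxidases Gpx1 and Gpx4, of highest signal among them, differed by -0.016 and -0.12. Adipocyte markers were higher in DBA_F1, opposite in sign to Nnt, and their part in its difference was not tested.

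Cdh23, on chromosome 10 (60302748 to 60696513), was dim by both probe sets. Probe set 1432346_a_at read 4.52, 4.47 and 4.35 in AKR_F1 and 4.28, 4.30 and 4.26 in DBA_F1. The groups did not overlap, and the difference was 0.17 (limma adjusted p = 0.426, 95% interval from -0.027 to 0.37). Probe set 1452028_a_at read 3.34, 3.46 and 3.59 in AKR_F1 and 3.56, 3.58 and 3.59 in DBA_F1, with a difference of -0.11 (adjusted p = 0.645). Of 10 measured tip link and Usher complex genes 0 were called and 7 were dim. Myo7a, an unconventional myosin of hair cells that other tissues also make, was the brightest of them and read 7.03, 6.99 and 7.06 in AKR_F1, against 6.63, 6.63 and 6.75 in DBA_F1. It did not overlap between groups and just missed the threshold (0.35 ± 0.068, adjusted p = 0.0518). The scaffold gene Whrn, second by signal, differed by 0.092 (adjusted p = 0.780).

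**Figure D2:**
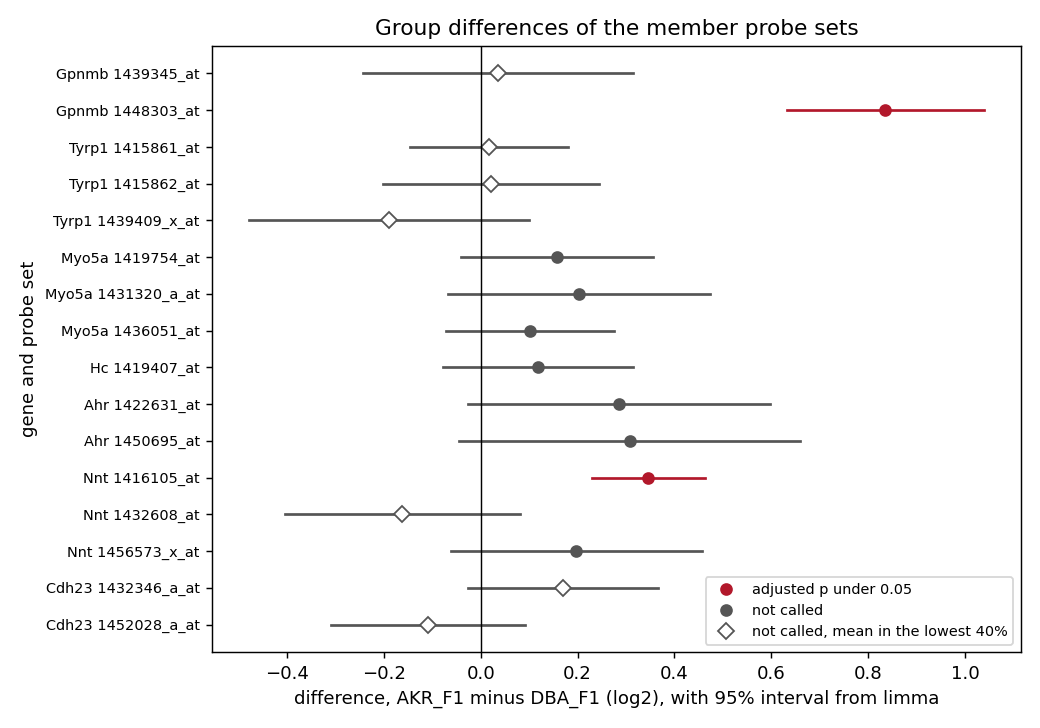
Difference in log2 signal, AKR_F1 minus DBA_F1, of the 16 member probe sets with 95% intervals from limma. Only the intervals of Gpnmb 1448303_at (0.63 to 1.04) and Nnt 1416105_at (0.23 to 0.46) exclude 0, and open diamonds mark probe sets whose mean lies in the lowest 40%.

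Soat1 lies on chromosome 1 (156428108 to 156474328), and in place of its own signal the genes of its pathway are given here and its neighbours on the chromosome further on. Of 12 measured genes of sterol esterification and cholesterol handling, 0 were called and 8 had a positive difference, with a median of 0.057 and a range from -0.055 to 0.14. Npc2, which binds cholesterol in lysosomes, differed by 0.029, and the sterol exporter Abcg1 by 0.14 (limma adjusted p = 0.329). Over all 8 pathway lists, 93 different genes were measured and 0 were called in limma, beside 1.62% of all 18193 genes. An unadjusted limma p under 0.05 was found for 20 of the 93 genes. Over the whole array it was found for 6389 of 45037 probe sets, a count of probe sets and not of genes.

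**Figure D3:**
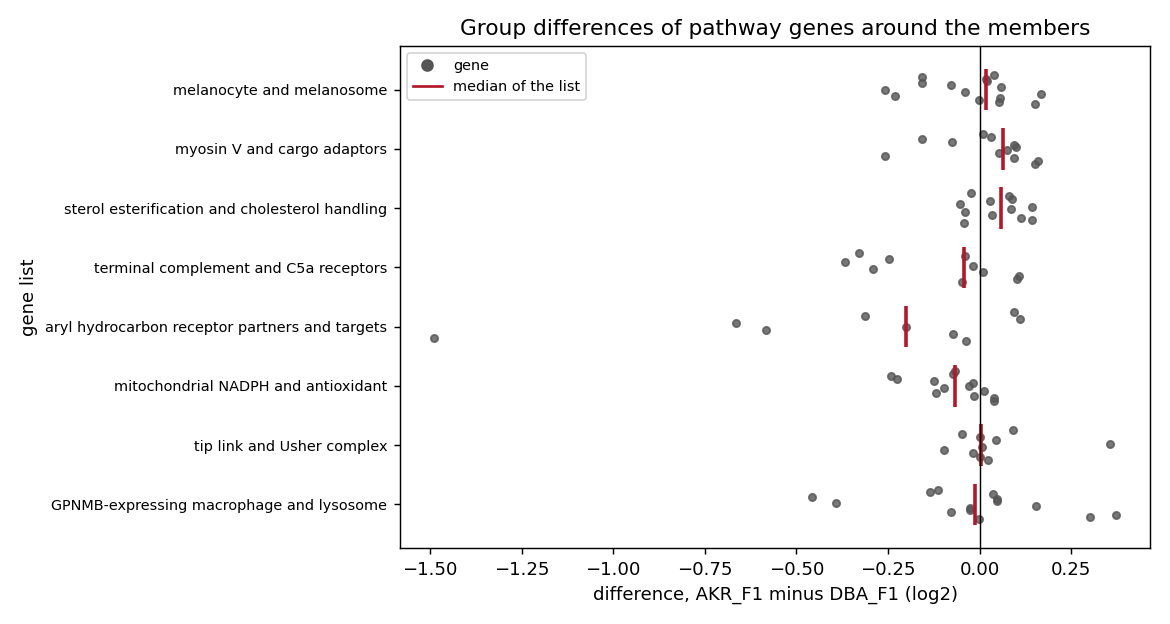
Difference in log2 signal, AKR_F1 minus DBA_F1, of each measured gene in the 8 pathway lists, with a red line at the median of each list. Medians lie between -0.20 (aryl hydrocarbon receptor partners and targets) and 0.064 (myosin V and cargo adaptors), and the point at -1.49 is Aldh3a1.

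Parental chromosomes differ in whole stretches, so the 10 nearest measured genes on each side of each member were listed, 160 in all. In limma 5 of them were called, each higher in AKR_F1, against 1.62% of all genes called in either direction and 0.896% called higher in AKR_F1. They lay near 3 members: 2 near Gpnmb, 2 near Nnt and 1 near Soat1. The count was 1 without AKR_F1 replicate 1 or without DBA_F1 replicate 2. It was 2 without AKR_F1 replicate 2 or without DBA_F1 replicate 1. Without DBA_F1 replicate 3 it was also 2, but 1 of these was higher in DBA_F1.

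Near Gpnmb, the neuropeptide gene Npy, which starts 0.79 Mb further along the chromosome, read 5.98, 6.29 and 5.80 in AKR_F1, against 5.13, 5.23 and 5.15 in DBA_F1. It differed by 0.85 ± 0.13 (SE, limma adjusted p = 0.0207). The lymphocyte GTPase gene Gimap5, 0.29 Mb to the other side, read 7.37, 7.23 and 7.17 in AKR_F1 and 6.80, 6.82 and 6.87 in DBA_F1 (0.43, adjusted p = 0.0369). Gimap5 has close paralogs beside it, so its signal may not be its own alone. The median over the 20 neighbours of Gpnmb was 0.034.

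Near Nnt, Tmem267 showed the largest difference among all 160 neighbours. It starts 0.15 Mb from the start of Nnt and read 6.73, 6.53 and 6.45 in AKR_F1, against 5.18, 5.39 and 5.44 in DBA_F1. The difference was 1.23 ± 0.11 (SE, limma adjusted p = 0.00190), and its call held whichever of the 6 arrays was dropped. Emb, which encodes the cell adhesion protein embigin and starts 2.11 Mb on the lower side, read 10.84, 10.76 and 10.78 in AKR_F1 and 10.49, 10.24 and 10.44 in DBA_F1 (0.40, adjusted p = 0.0349). Near Soat1, the phosphate exporter gene Xpr1 read 8.47, 8.51 and 8.55 in AKR_F1 and 8.23, 8.19 and 8.13 in DBA_F1 (0.33, adjusted p = 0.0349). With arrays dropped in turn, Xpr1 lost its call in all 6 fits, Gimap5 in 5, Npy and Emb in 4.

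**Figure D4:**
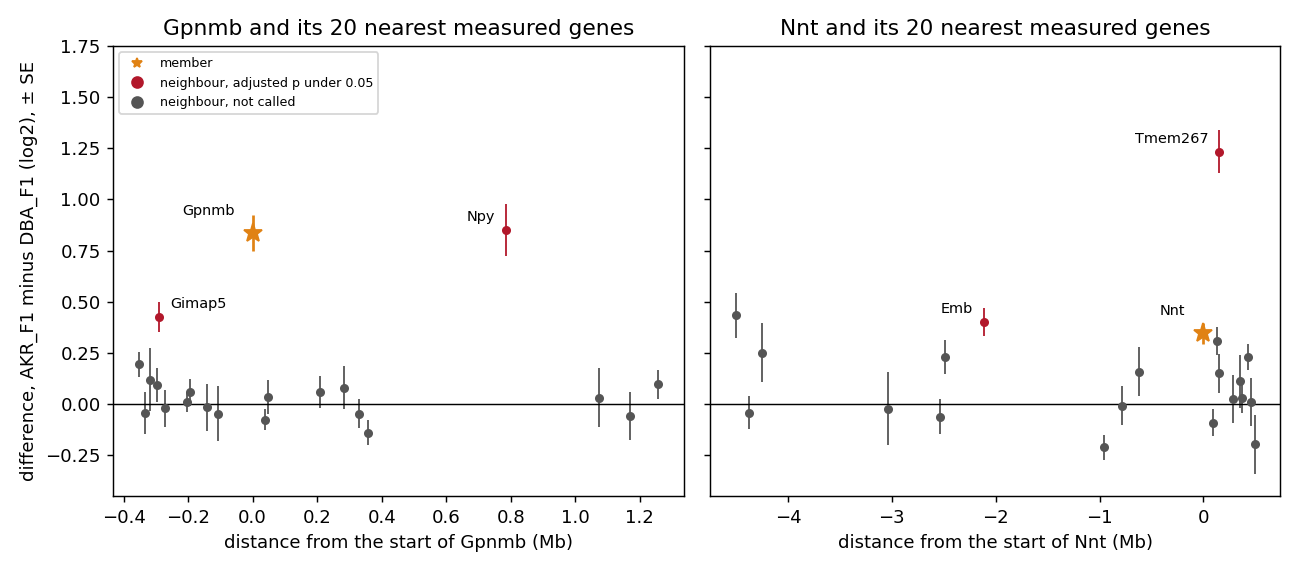
Difference in log2 signal, AKR_F1 minus DBA_F1, with its SE, of Gpnmb and Nnt (stars, brightest probe set) and of the 20 measured genes nearest to each, by distance in Mb from the start of the member. Called neighbours are red (Gimap5 and Npy beside Gpnmb, Emb and Tmem267 beside Nnt), and most of the others lie near 0.

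Genes with the most similar pattern over the 6 arrays were found by Pearson correlation among representative probe sets above the 4.72 level, as a description only, since 6 points and many genes always give high values. For Gpnmb they were Cyb561a3, a lysosomal cytochrome of the b561 family (r = 0.997), and the hedgehog ligand gene Dhh (r = 0.994), which differed by 0.42 (limma adjusted p = 0.0483) and lost its call whichever of the 6 arrays was dropped. For Nnt they were the kinase gene Cdk17 (r = 0.997) and Clba1 (r = 0.997), a clathrin-binding protein gene that read 0.78 higher in AKR_F1 (limma adjusted p = 0.0051). For Myo5a they were Nfkbie and Eif4a1 (r = 0.996 and 0.993), for Ahr Osbpl6 and Sclt1 (0.988 and 0.987), for Hc Rbpms and Luzp1 (0.981 for both), for Cdh23 Dip2a and Gpm6a (0.997 and 0.996) and for Tyrp1 Mat2b and Tspan2 (0.990 and 0.981). Those of Tyrp1 and Cdh23 rest on dim probe sets.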

How the data were processed

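The authors deposited a table of log2 signals, 1 for each probe set on each array. MAS5 and RMA appear in the submitters' processing notes with no version or role, so the log2 scale and the scaling between arrays were read from the authors' deposited values (1.90 to 14.56, near equal medians). No further normalization was applied. After 64 control probe sets were removed, 45037 were left: 34945 had 1 symbol, 932 several and 9160 none. Gene IDs of 34741 were found in the RefSeq table (GRCm38.p6), used for names, positions and gene order. Array probe sequences were not used, so whether parental sequence differs under a probe was not tested. No detection calls were used, and precision is limited by how few arrays there are.

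Groups were compared with limma 3.58.1 in R 4.3.3 (lmFit, eBayes with a trend, two-sided, group as the only term; 4 residual and 3.83 prior degrees of freedom), with Benjamini-Hochberg adjustment over all probe sets and no filter. The fit was tested on simulated data. In lists and neighbourhoods, a gene was represented by its probe set with the highest mean over all arrays. Named were all members, up to 4 called genes per pathway list or neighbourhood, the 2 of highest signal in a pathway list with under 2 calls, markers of cell types as needed, and the 2 genes most correlated with each member. Members and lists were chosen with earlier results of these data known. Deviations from group means of same-numbered arrays correlated at 0.21, -0.16 and -0.037, so the numbers were not taken to pair the arrays. Arrays were not identical in any pair (Pearson r from 0.986 to 0.997). Alternatives were filters, normalizations, variance models, array weights, a replicate block, arrays left out, and other representative probe sets and windows.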

Additional observations from a re-analysis of the deposited data

How the results depend on the processing

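Gpnmb 1448303_at kept its direction and its call under every alternative except AKR_F1 replicate 3 alone against DBA_F1 (0.81, adjusted p = 0.116), and ran from 0.78 to 0.91 with 1 array left out. Nnt 1416105_at kept its direction in all, at 0.33 to 0.36 with 1 array left out, but was not called when AKR_F1 replicate 1 (adjusted p = 0.108), AKR_F1 replicate 2 (0.0953) or DBA_F1 replicate 2 (0.0953) was dropped, for AKR_F1 replicate 3 alone (0.31, adjusted p = 0.383), with eBayes without a trend (0.35, adjusted p = 0.0509) or with the replicate block (0.35, adjusted p = 0.0552). Member probe sets called, 2 as reported, were 0 for AKR_F1 replicate 3 alone, 1 without a trend, 1 with the replicate block and 1 to 2 with 1 array left out. All probe sets called, 687 as reported, were 169 for AKR_F1 replicate 3 alone and 245 to 1211 with 1 array left out; with the replicate block they were 623. Pathway genes called, 0 as reported, were 3 with array weights, 2 with the lowest 40% left out, 2 with the lowest 60% left out, 1 with median centring, 1 with quantile normalization, 2 with the replicate block, 4 with robust eBayes, 1 with the most variable probe set and 0 to 3 with 1 array left out. With robust eBayes these were Cd59a, Myo7a, Lpl and Atp6v0d2, and Cyp1b1 was called with the replicate block (adjusted p = 0.0445). Neighbour genes called, 5 as reported, were 0 for AKR_F1 replicate 3 alone, 3 without a trend, 3 with the replicate block, 1 to 5 with 1 array left out, 2 for the 5 nearest genes on each side and 12 for the 20 nearest (9 higher in AKR_F1 and 3 higher in DBA_F1). The fits with fewer arrays have fewer degrees of freedom, and the windows hold different numbers of genes. For the other changes the cause was not tested.

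The 14 member probe sets that were not called stayed so under all alternatives, and 10 of 194 values changed sign. With AKR_F1 replicate 3 alone these were Tyrp1 1415862_at (-0.12), Hc (-0.016) and Cdh23 1452028_a_at (0.016). With 1 array left out, Gpnmb 1439345_at ran from -0.056 to 0.14, Tyrp1 1415861_at from -0.012 to 0.067 and Tyrp1 1415862_at from -0.051 to 0.094. Low signal, which was not tested against background, limits what the dim probe sets can show of a difference.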
